A study of Mus musculus with 6 samples.

Results

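The genes described here are the Zfp genes of 4T1 cells: protein-coding autosomal genes whose symbol is Zfp followed by a number, with a mean of at least 2 FPKM over all 6 libraries. FPKM, a fragment count normalised for transcript length and library size, was added up over all transcripts that the table gives for a gene. Genes were chosen by this level alone, and the rule kept 203 of 336 listed protein-coding autosomal genes with such a symbol, in a table of 26094 genes. The mean that chose them is over both groups, so levels are given as a description and the contrast between groups was not used directly. Some members still reached 2 FPKM only through the group where they were higher. Zfp235, Zfp65 and Zfp931, called higher below, averaged 2.6, 2.5 and 3.01 FPKM in Limch1_OE cells and 1.51, 1.58 and 1.71 FPKM in Vector cells. Zfp771 and Zfp324, not called, averaged 1.7 and 1.87 FPKM in Limch1_OE cells and 2.32 and 2.52 FPKM in Vector cells. The counts below include such genes. The members with means closest above 2 FPKM were Zfp771 (2.01 FPKM), Zfp94 (2.03 FPKM), Zfp65 (2.04 FPKM) and Zfp235 (2.05 FPKM). Those closest below were Zfp239 (1.99 FPKM), Zfp788 (1.99 FPKM), Zfp943 (1.97 FPKM) and Zfp229 (1.94 FPKM).

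4T1 is a mouse mammary carcinoma cell line. In the 3 Limch1_OE libraries the cells had been infected with a pLVX-IRES-neo lentivirus carrying mouse Limch1, and in the 3 Vector libraries with the empty vector, and both were selected with antibiotic as stable lines, so the controls carry the vector as well. LIMCH1 is an actin-associated protein that activates non-muscle myosin II, and the series asks how its overexpression changes these tumour cells. Groups follow the sample titles, and nothing in the labels says whether the 3 libraries of a group are separate cultures, so the p-values given here rest on a spread that may be technical.

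Most Zfp genes encode C2H2 zinc finger proteins, in which a pair of cysteines and a pair of histidines hold a zinc ion and each finger contacts a few bases of DNA. Many mouse Zfp genes also encode a KRAB domain, which recruits the corepressor KAP1 (Trim28) and, through it, the histone methyltransferase SETDB1 and HP1 proteins, and their best known targets are retrotransposons and imprinting control regions. Such genes arose by repeated duplication and lie in clusters on several chromosomes, so neighbours are often close copies of each other.

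The coding sequence of fingers shows what unites the family and where a member departs from it. Zfp932, the called gene with the highest fold change and a KRAB-type gene, holds 15 fingers and 12 copies of the short linker that joins many such fingers. Codons for the zinc-binding cysteines and histidines are printed in capitals. The first 3 fingers directly followed by that linker are printed because they show a tandem array. These 3 are numbered in printed order and need not be the first of the gene. They lie in 1 exon on the plus strand at chr5:110008837-110008899, chr5:110008921-110008983 and chr5:110009005-110009067 (mm10, sequences from GENCODE M21 transcripts, 5′ to 3′).
Zfp932 finger 1: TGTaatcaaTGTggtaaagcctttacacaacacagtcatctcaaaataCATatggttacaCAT
Zfp932 finger 2: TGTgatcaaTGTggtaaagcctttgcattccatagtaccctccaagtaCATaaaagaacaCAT
Zfp932 finger 3: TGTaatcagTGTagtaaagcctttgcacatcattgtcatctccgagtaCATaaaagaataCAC
Fingers 1 and 2 shared 47 of 63 bases, fingers 1 and 3 shared 47, and fingers 2 and 3 shared 50. The same spacing of capitals recurs in a finger of Zfp445 (minus strand, chr9:122852907-122852969), a regulator of imprinted genes, and in a finger of Zfp219 (minus strand, chr14:52009420-52009482), a member without a KRAB pattern.
Zfp445 finger: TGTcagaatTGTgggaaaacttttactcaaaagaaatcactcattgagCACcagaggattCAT
Zfp219 finger: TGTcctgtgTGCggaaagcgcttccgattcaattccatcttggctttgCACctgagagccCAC
Zfp36, the called member with the lowest fold change, carries no C2H2 finger. Its paired CCCH fingers, of 3 cysteines and 1 histidine, bind AU-rich RNA, and their codons lie on the minus strand at chr7:28378158-28378217 and chr7:28378044-28378103.
Zfp36 CCCH finger 1: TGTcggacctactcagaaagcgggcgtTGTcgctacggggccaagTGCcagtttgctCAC
Zfp36 CCCH finger 2: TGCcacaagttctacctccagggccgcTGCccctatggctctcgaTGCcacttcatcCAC

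With all 6 libraries as deposited, Zfp genes were called higher in Limch1_OE more often than tested genes in general, and seldom lower. Of the 203 members, 73 were higher, 7 were lower and 123 did not pass the test (limma on log2(FPKM + 1), Limch1_OE minus Vector, Benjamini-Hochberg adjusted p under 0.05 over all 11842 tested genes). Across all tested genes 20.2% were called higher and 14.4% lower, against 36.0% and 3.45% of the members. The median log2 fold change was 0.16 over the members and 0.04 over all tested genes, and 156 of 203 members had a positive value. The changes were modest: the ratio of means reached 1.5 in either direction in 17 of the 80 called members. Fold changes below are differences of log2(FPKM + 1), and the added 1 shrinks them for genes of low level. All 203 members passed the filter of the test (1 FPKM or more in 3 or more libraries). The count of higher members was 42 without Limch1_OE replicate 1, 45 without Limch1_OE replicate 2, 37 without Vector replicate 1 and 43 without Vector replicate 2. These are 20.7%, 22.2%, 18.2% and 21.2% of the members, against 17.5%, 13.9%, 13.5% and 15.1% of all tested genes in the same fits. With the trend over GC content removed, described further on, the members' share was 18.8% against 17.1% of all tested genes, and without Limch1_OE replicate 1 as well it was below that of all tested genes, at 11.9% against 14.2%. The count of lower members was 4 without Vector replicate 2. Bulk RNA cannot tell a change in RNA per cell from a change in the share of cells that hold it.

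Non-overlap of the groups was also counted. All 3 Limch1_OE libraries lay above all 3 Vector libraries for 88 members (28.6% of all tested genes did so), and all 3 lay below for 17 (20.5% of all tested genes), while the groups overlapped for 98. Among called members, 69 of the 73 higher and 7 of the 7 lower genes had groups that did not overlap.

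The level of the whole family differed between libraries of the same group. The 203 members summed to 1937.9, 1853.6 and 1791.7 FPKM in Limch1_OE replicates 1, 2 and 3, against 1671.4, 1712.6 and 1703.3 FPKM in Vector cells replicates 1, 2 and 3. Every Limch1_OE sum was thus above every Vector sum, and Limch1_OE replicate 1 had the highest. The median member lay 0.22, 0.14 and 0.10 (log2) above its Vector mean in the 3 Limch1_OE libraries, and lay at -0.02, 0.01 and 0.01 in the 3 Vector libraries. For 126 of the 203 members Limch1_OE replicate 1 was the highest library of its group, against 44 for replicate 2 and 33 for replicate 3. In the Vector group these numbers were 46, 81 and 76.

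**Figure D1:**
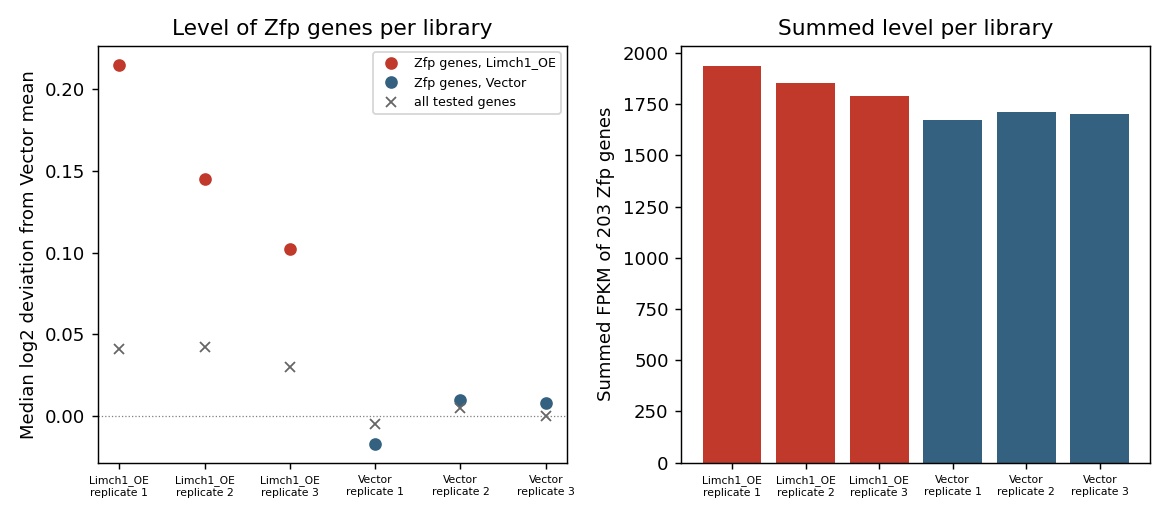
Left, the median over Zfp genes (filled circles) and over all tested genes (crosses) of the log2(FPKM + 1) deviation from the Vector mean in each library, and right, the summed FPKM of the 203 Zfp genes per library. The 3 Limch1_OE libraries lie at 0.22, 0.14 and 0.10 for the Zfp genes and sum to 1791.7 or more, above the 3 Vector libraries.

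Several measures of the libraries moved with the groups. Limch1 itself averaged 24.3 ± 1.23 FPKM in Limch1_OE cells and 0.167 ± 0.0764 FPKM in Vector cells (SD, n = 3 libraries each), in the direction the labels give. Mitochondrially encoded mRNAs made up 8.2%, 5.89% and 6.04% of the FPKM in Limch1_OE replicates 1, 2 and 3, against 5.1%, 4.39% and 4.42% in Vector. The nuclear-retained RNA Malat1 had 91.46, 80.64 and 77.59 FPKM in Limch1_OE cells, against 40.23, 45.19 and 41.41 FPKM in Vector cells. Malat1 is 1 of 5 noncoding RNAs listed as signs of RNA quality, of which 3 were higher and 2 lower. The lower were Rn7sk (log2 fold change -0.91, limma adjusted p = 0.00486) and Snhg1 (-0.25, adjusted p = 0.0102). The share of retained-intron transcripts ranged over 3.25% to 3.71% in Limch1_OE cells and 3.26% to 3.46% in Vector, and so overlapped. Of 10 mammary carcinoma identity genes 0 were higher and 5 lower, and their summed level was 1310 to 1440 FPKM in Limch1_OE cells and 1450 to 1500 FPKM in Vector cells. Of 5 leukocyte and 6 endothelial markers listed in the table none reached 1 FPKM in any library, with library sums of at most 0.43 FPKM, and 5 of 6 fibroblast markers stayed below 1 FPKM. The part of these library measures in the Zfp values was not tested.

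Zfp932 had the highest fold change of the called members. The gene lies on the plus strand at chr5:109996521-110010411 and encodes a KRAB-type protein with 15 fingers that, together with the product of its close copy Gm15446, represses endogenous retroviruses in mouse embryonic stem cells. Zfp932 had 9.18, 8.76 and 7.83 FPKM in Limch1_OE cells, against 5.11, 5.4 and 4.91 FPKM in Vector cells. No Limch1_OE library came near a Vector library, and the ratio of means was 1.67 (log2 fold change 0.64, SE 0.08, limma adjusted p = 0.000428). Gm15446, whose best coding match to Zfp932 had 96.9% identity, had 4.35, 3.76 and 3.44 FPKM in Limch1_OE cells and 2.62, 2.73 and 2.86 FPKM in Vector cells (log2 fold change 0.37, limma adjusted p = 0.0143). The call of Gm15446 ended by its most abundant transcript (adjusted p = 0.0523), with no filter on low values (0.0647), and with the GC trend removed and Limch1_OE replicate 1 left out (0.102). How reads shared by such copies were assigned is not given in the sources used here, so the split between the pair is uncertain.

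Zfp760, a KRAB-type gene on chromosome 17 with 16 fingers, had 4.55, 3.58 and 3.58 FPKM in Limch1_OE cells and 2.28, 2.33 and 2.2 FPKM in Vector cells. The groups stood apart, with a log2 fold change of 0.58 (SE 0.10, limma adjusted p = 0.0026). Zfp62, a gene of 25 fingers without a KRAB pattern (chr11:49203292-49218816), had 16.77, 13.66 and 12.38 FPKM in Limch1_OE cells and 9.47, 9.39 and 8.92 FPKM in Vector cells. Limch1_OE replicate 1 was the highest library for both genes. The log2 fold change of Zfp62 was 0.56 (SE 0.10, limma adjusted p = 0.00307), and 0.81 with an adjusted p of 0.0694 for its most abundant transcript alone.

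Zfp219 gave the smallest p of all members and departs from the KRAB-type genes in sequence. It encodes 9 fingers without a KRAB pattern, is known as a partner of Sox9 in cartilage, and lies at chr14:52006077-52020733 on the minus strand. Zfp219 had 19.08, 19.8 and 18.77 FPKM in Limch1_OE cells, against 12.98, 12.72 and 12.74 FPKM in Vector cells. Libraries of a group lay close together, with a log2 fold change of 0.55 (SE 0.05, limma adjusted p = 9.97e-05). Its most abundant listed transcript, which held 34.7% of the gene's FPKM, gave 0.28 with an adjusted p of 0.609. Zfp787, also without a KRAB pattern, had 6.99, 7.61 and 7.39 FPKM in Limch1_OE cells and 3.67, 5.44 and 5.02 FPKM in Vector cells (log2 fold change 0.56, limma adjusted p = 0.00689).

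Other members among the 12 highest were Zfp90 (log2 fold change 0.50), Zfp704 (0.50), Zfp235 (0.52), Zfp971 (0.51), Zfp97 (0.51), Zfp931 (0.56) and Zfp965 (0.61), each called by limma. Zfp90, a KRAB-type gene whose protein binds the neuronal repressor REST, had 6.06, 5.52 and 4.57 FPKM in Limch1_OE cells and 3.35, 3.43 and 3.71 FPKM in Vector cells. Transcripts annotated as protein-coding held 25.1% of the Zfp90 level, and over these alone its log2 fold change was 0.17 with an adjusted p of 0.396. Zfp704, a gene of 1 finger, had 5.4, 5.51 and 4.44 FPKM in Limch1_OE cells and 3.48, 3.31 and 3.19 FPKM in Vector cells. Both genes had groups that did not overlap.

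Zfp965 and Zfp931 were called on wider spreads. Zfp965 had 4.86, 3.91 and 3.19 FPKM in Limch1_OE cells and 1.48, 2.23 and 3.22 FPKM in Vector cells, so that its groups overlapped. Its limma adjusted p was 0.0366, and leaving out Limch1_OE replicate 1 or 2 or Vector replicate 1 or 2 ended the call, with log2 fold changes of 0.42 to 0.80 over the 6 libraries left out in turn. Its coding sequence matched that of Zfp973 at 100.0% identity over 100.0% of its length, and the split of reads between that pair is uncertain. Zfp931 had 3.84, 2.7 and 2.48 FPKM in Limch1_OE cells and 1.26, 2.11 and 1.77 FPKM in Vector cells (adjusted p = 0.0235), and lost its call without Limch1_OE replicate 1, Vector replicate 1 or Vector replicate 3, with log2 fold changes of 0.42 to 0.66. In all, 21 of the 203 members had a copy of at least 90% identity over 50% or more of their coding sequence, 14 of them among the 73 higher members.

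**Figure D2:**
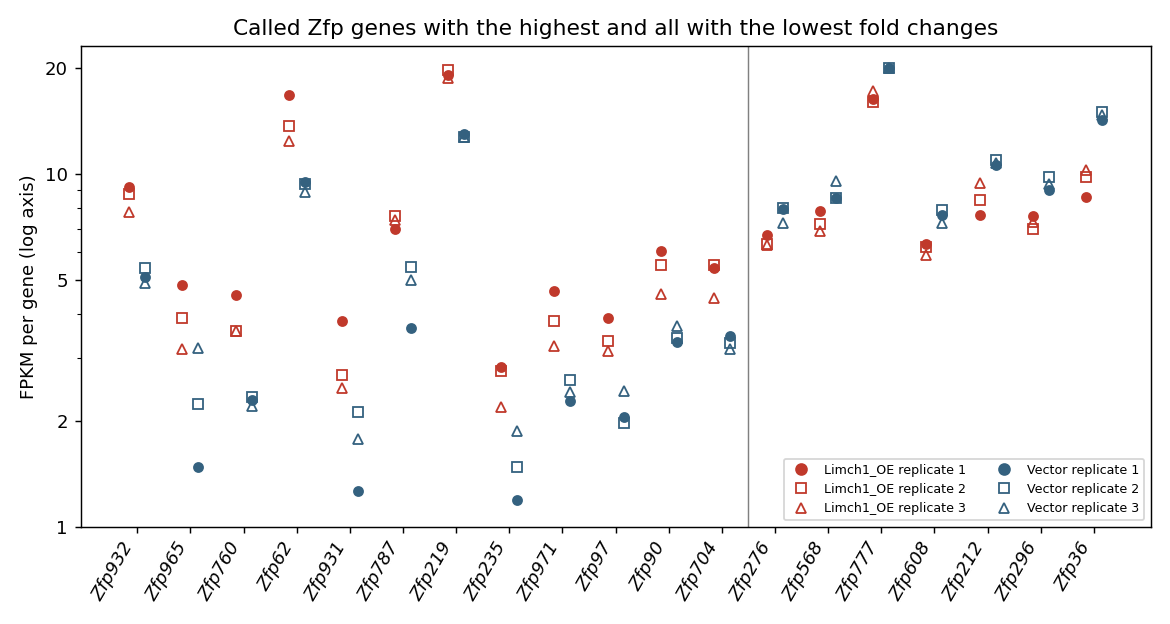
FPKM per library (log axis) of the 12 called Zfp genes with the highest fold changes, left of the line, and of the 7 called lower, right of it, with Limch1_OE in red and Vector in blue. The groups stand apart for each gene except Zfp965, whose lowest Limch1_OE library, at 3.19 FPKM, lies below its highest Vector library, at 3.22 FPKM.

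A gene known for genome defence and imprinting, Zfp445, was among the higher members. It was named here after its values were seen, for its known role with ZFP57 in keeping imprinted regions silenced in mouse. Zfp445 had 25.42, 22.71 and 19.69 FPKM in Limch1_OE cells, against 15.81, 17.54 and 16.66 FPKM in Vector cells. The groups did not overlap, with a log2 fold change of 0.41 (SE 0.09, limma adjusted p = 0.00757). Zfp809, chosen in the same way because its protein silences murine leukaemia viruses in mouse stem cells, had 14.33, 12.27 and 10.35 FPKM in Limch1_OE cells and 10.87, 11.06 and 9.13 FPKM in Vector cells. Its groups overlapped and it did not pass the test (log2 fold change 0.22, limma adjusted p = 0.159), although without Limch1_OE replicate 3 it did, at 0.33 with an adjusted p of 0.0391.

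The 7 lower members were a mixed set, of which 3 held a KRAB pattern. Zfp36 encodes tristetraprolin, which binds AU-rich elements of cytokine and growth-regulatory mRNAs and speeds their decay. Zfp36 had 8.64, 9.81 and 10.29 FPKM in Limch1_OE cells, against 14.2, 15.05 and 14.69 FPKM in Vector cells. Each Limch1_OE library lay well below each Vector library, with a ratio of means of 0.654 and a log2 fold change of -0.57 (SE 0.07, limma adjusted p = 0.000562). Its relative Zfp36l2, which the symbol rule leaves out, averaged 40.5 ± 1.53 FPKM in Limch1_OE cells and 55.9 ± 2.69 FPKM in Vector cells (SD, n = 3 each, log2 fold change -0.46, limma adjusted p = 0.000363). Another relative left out, Zfp36l1, went the other way, at 25.2 ± 1.4 FPKM in Limch1_OE cells and 20.7 ± 0.144 FPKM in Vector cells (0.27, adjusted p = 0.00656).

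Zfp296, a gene expressed in pluripotent cells, had 7.6, 6.98 and 7.32 FPKM in Limch1_OE cells and 9.02, 9.8 and 9.38 FPKM in Vector cells. Zfp608, with 1 finger in a protein of 1511 residues, had 6.33, 6.22 and 5.9 FPKM in Limch1_OE cells and 7.67, 7.93 and 7.28 FPKM in Vector cells. Both had groups that did not overlap, with log2 fold changes of -0.33 and -0.27 (limma adjusted p = 0.00556 and 0.0139). Without Vector replicate 2 the adjusted p of Zfp608 was 0.0543.

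Zfp568, a KRAB-type gene whose mouse protein represses a placental transcript of Igf2, had 7.85, 7.22 and 6.91 FPKM in Limch1_OE cells and 8.57, 8.56 and 9.53 FPKM in Vector cells (log2 fold change -0.25, limma adjusted p = 0.0291). Zfp276 had 6.72, 6.34 and 6.31 FPKM in Limch1_OE cells and 7.98, 7.99 and 7.27 FPKM in Vector cells (log2 fold change -0.23, limma adjusted p = 0.0291). Both were lower in each Limch1_OE library than in any Vector library. Neither call was stable: that of Zfp568 ended without each library except Limch1_OE replicate 1, and that of Zfp276 without Limch1_OE replicate 2 or 3 or Vector replicate 1 or 2, with adjusted p-values up to 0.1 and 0.101.

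The most abundant Zfp genes encode proteins with roles outside KRAB repression, and several of them differed little between groups. Zfp207, whose protein (BuGZ) binds the checkpoint protein Bub3 at kinetochores, had 50.96, 51.77 and 49.66 FPKM in Limch1_OE cells and 52.12, 53.2 and 47.65 FPKM in Vector cells. Zfp664 averaged 45.8 ± 1.53 FPKM in Limch1_OE cells and 46.3 ± 1.46 FPKM in Vector cells. Zfp598, which encodes the ubiquitin ligase that marks collided ribosomes, averaged 37.3 ± 0.707 FPKM in Limch1_OE cells and 36.6 ± 1.81 FPKM in Vector cells (SD, n = 3 each). These 3 genes overlapped between groups and did not pass the test (limma adjusted p = 0.962, 0.835 and 0.703). Zfp330 averaged 34.1 ± 0.58 FPKM in Limch1_OE cells and 37.2 ± 2.98 FPKM in Vector cells, and Zfp740 33.7 ± 1.18 FPKM in Limch1_OE cells and 34.1 ± 2.14 FPKM in Vector cells, also without a call (adjusted p = 0.168 and 0.851).

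Zfp706, Zfp106 and Zfp91 were the called genes among the 8 most abundant. Zfp706, which encodes a protein of 76 residues, had 41.48, 42.53 and 41.79 FPKM in Limch1_OE cells and 36.62, 34.15 and 36.23 FPKM in Vector cells (log2 fold change 0.23, limma adjusted p = 0.00667). Zfp91, an E3 ubiquitin ligase of the non-canonical NF-kB pathway, had 38.24, 36.03 and 33.17 FPKM in Limch1_OE cells and 28.18, 28.89 and 30.03 FPKM in Vector cells (0.29, adjusted p = 0.00679). Zfp106, an RNA-binding protein needed by motor neurons in mouse, had 38.44, 35.48 and 33.59 FPKM in Limch1_OE cells and 29.61, 29.89 and 29.31 FPKM in Vector cells (0.27, adjusted p = 0.00781). For each of these 3 genes all Limch1_OE libraries lay above all Vector libraries.

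The members were also split by a KRAB pattern. A sequence pattern of the KRAB domain was found within the first 400 residues of a coding transcript in 96 members, and was not found in 107. How many KRAB domains the pattern misses was not measured, so the 107 may include genes that encode one. KRAB-type members had a median of 11 fingers, a median GC content of 42.0% and a median level of 3.76 FPKM, while the others had 7 fingers, 52.0% and 8.82 FPKM. Of the 96, 49 were higher and 3 lower in Limch1_OE (51.0% and 3.12%), with a median log2 fold change of 0.29. Of the 107, 24 were higher and 4 lower (22.4% and 3.74%), with a median of 0.06. Of all tested genes 20.2% were higher and 14.4% lower. With the trend over GC content removed, described further on, 21.9% of the KRAB-type members and 16.0% of the others were higher, against 17.1% of all tested genes. The summed level of KRAB-type members was 590.4, 528.2 and 498.0 FPKM in Limch1_OE replicates 1, 2 and 3, against 443.8, 450.6 and 465.0 FPKM in Vector cells, so that Limch1_OE replicate 1 stood highest. The count of 49 was 23 without Limch1_OE replicate 1, 29 without Limch1_OE replicate 2, 25 without Vector replicate 1 and 24 without Vector replicate 2. In the same fits 17.5%, 13.9%, 13.5% and 15.1% of all tested genes were higher. The pattern split was made with these values known and no test of the difference was run.

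**Figure D3:**
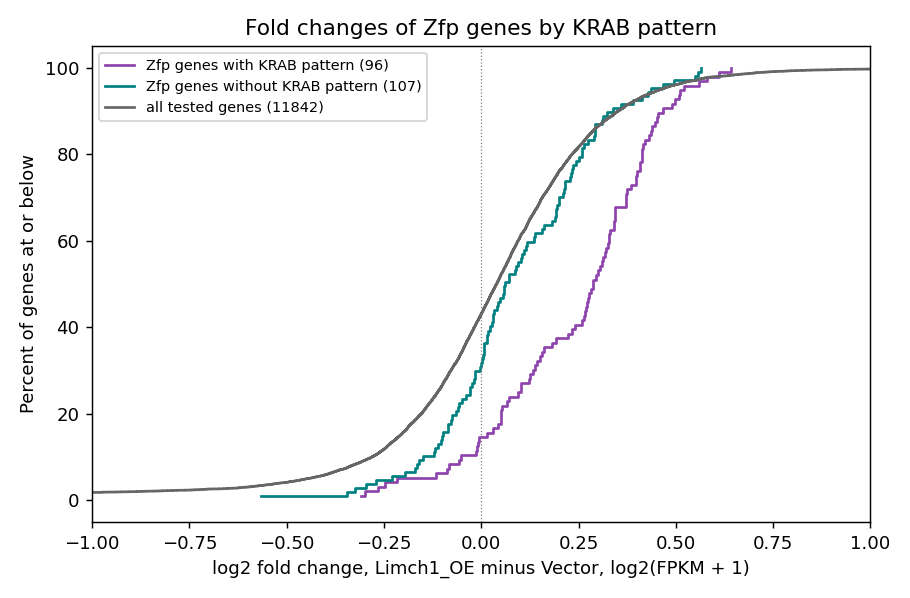
Cumulative percent of genes against log2 fold change on log2(FPKM + 1), Limch1_OE minus Vector, for Zfp genes with and without a KRAB pattern and for all tested genes, shown from -1 to 1. The median lies at 0.29 for KRAB-type Zfp genes, 0.06 for the others and 0.04 for all tested genes.

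Genes of the same build outside the members gave similar medians. Of 92 tested genes outside the members with a KRAB pattern and at least 3 fingers, 31 were higher and 1 lower, with a median of 0.28. The share called higher was 33.7%, against 51.0% of the KRAB-type members. Of 138 without the pattern but with at least 3 fingers, 26 were higher and 11 lower, with a median of 0.07. Both sets leave out only the members, so Zfp genes below 2 FPKM with such fingers are counted in them too. The 56 tested Zfp genes below 2 FPKM had 16 higher (28.6%, against 20.2% of all tested genes) and 1 lower, with a median of 0.24. Near the filter of the test, 1 FPKM in 3 libraries, a gene can be tested only through the group where it is higher. The counts outside the members lean on that filter, and how many genes passed it in this way was not counted. Members with 0 to 2 fingers had 5 of 24 higher (20.8%, near the 20.2% of all tested genes) and 2 lower. Those with 3 to 9 had 28 of 82 higher (34.1%) and 4 lower. Those with 10 to 14 had 26 of 62 higher (41.9%) and 1 lower. Those with 15 or more had 14 of 35 higher (40.0%) and 0 lower. The medians over these finger classes were 0.01, 0.10, 0.22 and 0.27. Among KRAB-type members alone the classes of 3 to 9, 10 to 14 and 15 or more fingers had medians of 0.26, 0.29 and 0.31. Of the 6 members that held no C2H2 match, Zfp703 and Zfp503 overlapped between groups at means of 15.2 ± 0.916 and 16.2 ± 0.962 FPKM in Limch1_OE cells and 15.5 ± 1.27 and 16.1 ± 1.16 FPKM in Vector cells (SD, n = 3 each).

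Fold changes were set against the level and base composition of the members, as a description. Of 91 members with a mean of 2 to under 5 FPKM, 42 were higher (46.2%, against 20.2% of all tested genes) and 0 lower, with a median of 0.28. That mean includes both groups, so members that reached 2 FPKM only through Limch1_OE are counted here. Of 14 members at 20 FPKM or more, 6 were higher (42.9%) and 0 lower, with a median of 0.01. Across members Spearman's rho of the log2 fold change was -0.32 with mean FPKM (n = 203), 0.30 with the number of fingers (n = 203) and -0.42 with the GC content of the most abundant listed transcript (n = 202). These points share the same 6 libraries and are not independent replicates. For GC content rho was -0.51 within the KRAB-type members (n = 96) and -0.02 within the others (n = 106).

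Base composition also moved with the fold change outside the family. Among tested genes of the fifth with the lowest GC content (17.1% to 44.3%), 26.6% of the 2277 other genes were higher, with a median of 0.11, and 47 of the 78 members (60.3%) there were higher and 0 lower, with a median of 0.33. In the next class (to 48.3%), 3 of 28 members (10.7%) were higher, against 19.3% of other genes. In the middle class (to 52.0%) 9 of 33 members (27.3%) were higher, against 18.3% of other genes, and in the next (to 55.9%) 3 of 25 members, against 16.4% of other genes. The members' share was thus below that of other genes from 44.3% to 48.3% and from 52.0% to 55.9% GC. In the fifth with the highest GC content (55.9% to 75.5%), 19.1% of 2317 other genes and 11 of 38 members were higher, with medians of 0.03 and 0.18. When the trend over GC content was removed from each library, an alternative added after the data were seen, 38 members were higher and 16 lower, with a median of 0.10, while 17.1% of all tested genes were higher and 20.0% lower. Of the KRAB-type members 21 were then higher and 6 lower (median 0.16), and of the others 17 were higher and 10 lower (median 0.04). The 38 were all among the 73. Without Limch1_OE replicate 1 as well, 24 were higher and 14 lower (11.9% and 6.93% of the tested members, against 14.2% and 17.4% of all tested genes), so that members were then called higher less often than tested genes in general. Zfp932 kept its call after the trend was removed, at 0.44 with an adjusted p of 0.00174, as did Zfp219, at 0.48 with an adjusted p of 0.000306, and Zfp36, at -0.58 with an adjusted p of 0.000167. Zfp760 kept it at 0.37 (adjusted p = 0.00723), while Zfp965 (adjusted p = 0.154), Zfp979 (0.0939) and Zfp984 (0.479) lost it.

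**Figure D4:**
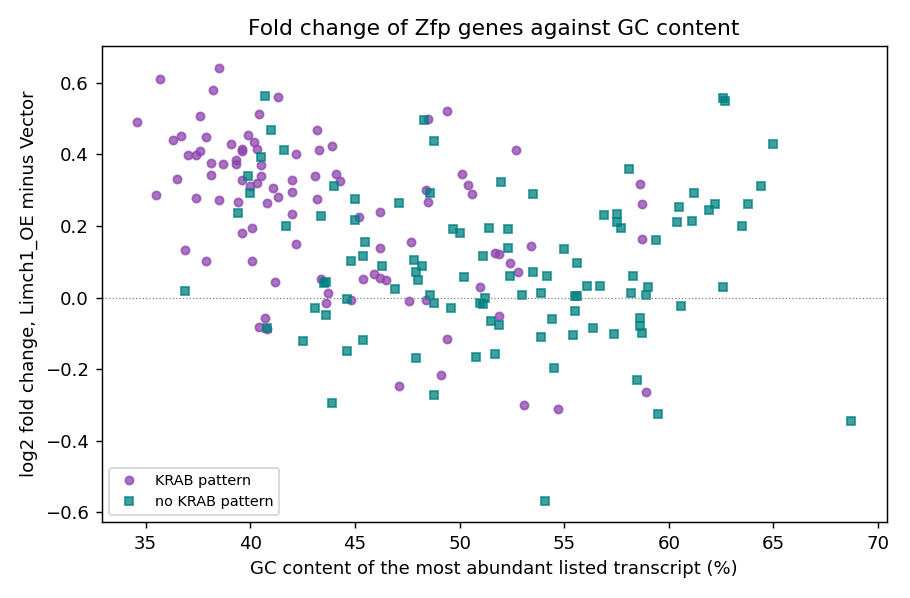
Log2 fold change on log2(FPKM + 1), Limch1_OE minus Vector, against the GC content of the most abundant listed transcript, 1 point per Zfp gene. KRAB-type genes (circles) spread from 34.6% to 58.9% GC, with the higher fold changes at low GC content, and the others (squares) reach 68.7%.

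Scaling shifted the background as well. With trimmed-mean factors the median of all tested genes was 0.00 in place of 0.04, 16.0% of tested genes were higher and 17.3% lower, and 56 members were higher and 11 lower. The 56 were all among the 73.

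Upstream sequence separated the same classes. In the RefSeq promoter table (250 bases before to 50 after the start), 164 of the 203 members had an entry, and their median number of CG dinucleotides (the letters CG in the window of each gene with most of them) was 17, against 23 for 8361 other tested genes. KRAB-type members had a median of 12 and the others 24. Members called higher had a median of 13 and members not called 18. Of the 73 called higher 49 were KRAB-type, and medians by call within each class were not computed.

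By position, 113 members lay in clusters and 90 outside. A cluster is a run of protein-coding genes named Zfp and a number, expressed or not, with gaps of no more than 500 kb and at least 3 genes, which gave 31 autosomal clusters, 30 of them with a member and 16 with at least 3. In clusters 47 of 113 members were higher (41.6%) and 4 lower (median 0.25), and outside 26 of 90 were higher (28.9%) and 3 lower (median 0.09). Of all tested genes 20.2% were higher and 14.4% lower. KRAB-type members had nearly the same medians in clusters (40 of 78 higher, 3 lower, 0.29) and outside (9 of 18 higher, 0 lower, 0.27), and so did members without the pattern (7 of 35 higher, 0.06, and 17 of 72 higher, 0.07). The count of 47 was 21 without Limch1_OE replicate 1, 24 without Limch1_OE replicate 2, 21 without Vector replicate 1 and 23 without Vector replicate 2. In the same fits 17.5%, 13.9%, 13.5% and 15.1% of all tested genes were higher. Of the 16 clusters with at least 3 members, 14 had a positive median.

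Chromosome 17 held the largest number of higher members, 17 of 24 (70.8%, against 20.2% of all tested genes). In the cluster at 32.8 to 33.6 Mb, 7 of 8 members were higher, with a cluster median of 0.32. Zfp952 had 4.74, 4.08 and 4.13 FPKM in Limch1_OE cells and 2.96, 3.05 and 3.06 FPKM in Vector cells (log2 fold change 0.40, limma adjusted p = 0.00608), and Zfp763 had 4.07, 3.38 and 2.78 FPKM in Limch1_OE cells and 1.85, 2.5 and 2.56 FPKM in Vector cells (0.41, adjusted p = 0.0386). Zfp472 averaged 3.1 ± 0.62 FPKM in Limch1_OE cells and 2.15 ± 0.1 FPKM in Vector cells, and Zfp799 4.09 ± 0.329 FPKM in Limch1_OE cells and 3.05 ± 0.13 FPKM in Vector cells (SD, n = 3 each). All 4 had groups that did not overlap. The 7 higher genes hold a KRAB pattern, and the exception, Zfp414, a gene of 2 fingers without it at the end of the cluster, had 11.15, 12.58 and 11.75 FPKM in Limch1_OE cells and 12.68, 13.18 and 12.33 FPKM in Vector cells (-0.10, adjusted p = 0.254). The call of Zfp763 ended without any library other than Limch1_OE replicate 3, and so did that of Zfp472, with adjusted p-values up to 0.123 and 0.1 (the highest without Vector replicate 1 in both).

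The second cluster of chromosome 17, at 21.0 to 23.6 Mb, held 10 members, all KRAB-type, of which 6 were higher, with a median of 0.39. They include Zfp760, described above, Zfp160 (10.67, 8.24 and 7.72 FPKM in Limch1_OE cells and 6.98, 5.48 and 6.78 FPKM in Vector cells), Zfp995 and Zfp946. Zfp995 averaged 2.98 ± 0.354 FPKM in Limch1_OE cells and 2.0 ± 0.259 FPKM in Vector cells, and Zfp946 2.96 ± 0.428 FPKM in Limch1_OE cells and 2.01 ± 0.344 FPKM in Vector cells (SD, n = 3 each). Their groups did not overlap, with log2 fold changes of 0.40 to 0.41 (limma adjusted p = 0.0169 to 0.0312). Zfp160 lost its call without Limch1_OE replicate 1 or 2 or Vector replicate 2 or 3 (adjusted p up to 0.0996), Zfp946 without Limch1_OE replicate 1 or 2 or Vector replicate 1 or 2 (up to 0.0985), and Zfp995 without Limch1_OE replicate 2 or Vector replicate 1 or 2 (up to 0.0628). The coding sequence of Zfp995 matched Zfp947 at 95.0% identity. Of the other 4 members, Zfp53, Zfp51 and Zfp945 had values of 0.27 to 0.29 and Zfp948 -0.06, none with a call. With the GC trend removed, 1 of the 10 was higher, Zfp760, and 1 was lower, Zfp948 (-0.20, adjusted p = 0.0362). In the first cluster 3 of 8 were then higher, Zfp101, Zfp799 and Zfp952, and by the most abundant transcript 0 of 8 were, against 3 of 10 in the second. Under the alternatives run, the medians of the 2 clusters of chromosome 17 stayed between 0.15 and 0.48.

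Chromosome 9 had 10 of 15 members higher (66.7%, against 20.2% of all tested genes) and 0 lower. In the cluster at 20.3 to 20.6 Mb, 4 of 5 members were higher (median 0.42), and all 5 hold a KRAB pattern. Zfp266, reported as a barrier to cardiac reprogramming of mouse fibroblasts, had 18.38, 14.79 and 13.85 FPKM in Limch1_OE cells and 10.57, 11.59 and 11.13 FPKM in Vector cells (log2 fold change 0.45, limma adjusted p = 0.0075). Zfp26, a gene of 22 fingers, had 5.08, 4.25 and 4.22 FPKM in Limch1_OE cells and 3.13, 3.11 and 3.13 FPKM in Vector cells (0.42, adjusted p = 0.0065). Both genes were higher in each Limch1_OE library than in any Vector library. Zfp560 averaged 2.56 ± 0.28 FPKM in Limch1_OE cells and 1.63 ± 0.0808 FPKM in Vector cells, and Zfp426 12.2 ± 1.53 FPKM in Limch1_OE cells and 9.56 ± 1.32 FPKM in Vector cells (SD, n = 3 each), the second with overlapping groups. Zfp846 was not called (0.15, adjusted p = 0.28). With the GC trend removed 3 of the 5 were higher, Zfp26 (0.27), Zfp266 (0.29) and Zfp560 (0.28). In the neighbouring cluster at 22.1 to 22.3 Mb, 2 of 4 members were higher, Zfp599 (0.28) and Zfp653 (0.24), and with the GC trend removed 0 of 4 were. Zfp426 lost its call without Limch1_OE replicate 1 or 2 or Vector replicate 1 or 2 (adjusted p up to 0.153), Zfp599 without Limch1_OE replicate 1 or 2 or Vector replicate 2 or 3 (up to 0.104), and Zfp653 without any 1 of the 6 libraries (up to 0.1).

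**Figure D5:**
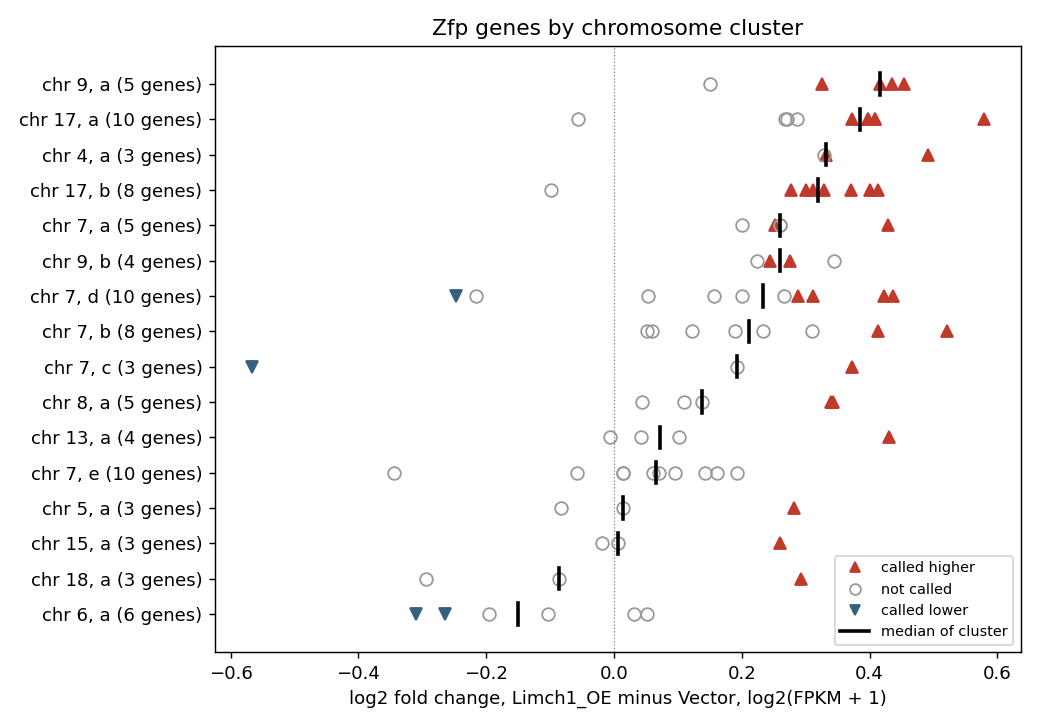
Log2 fold change on log2(FPKM + 1), Limch1_OE minus Vector, of each Zfp gene in the 16 clusters with at least 3 members, with the cluster median as a bar; letters run along a chromosome. Cluster medians span -0.15 for chromosome 6 to 0.42 for the first cluster of chromosome 9.

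Chromosome 7 held the most members, 49, of which 11 were higher (22.4%) and 3 lower (6.12%). Of all tested genes 20.2% were higher, close to that share, and 14.4% lower. The cluster at 29.8 to 30.2 Mb was mixed, with 4 higher and 1 lower of 10 (median 0.23). Zfp146, whose protein consists almost wholly of fingers, had 38.97, 37.85 and 35.07 FPKM in Limch1_OE cells and 27.86, 25.56 and 28.47 FPKM in Vector cells (log2 fold change 0.44, limma adjusted p = 0.000986), and Zfp74 averaged 5.72 ± 0.73 FPKM in Limch1_OE cells and 4.0 ± 0.272 FPKM in Vector cells (SD, n = 3 each, 0.42, adjusted p = 0.00934). Zfp420 (0.31) and Zfp30 (0.29) were higher too, and Zfp568, at the same site, was lower, as given above. In the cluster at 24.1 to 25.2 Mb 2 of 8 were higher, Zfp235 and Zfp61 (0.52 and 0.41), and in that at 4.9 to 5.1 Mb 2 of 5, Zfp580 and Zfp524 (0.43 and 0.25), neither with a KRAB pattern. Zfp524 shares identical coding sequence with the overlapping gene Gm44973, so its level is uncertain. The calls of Zfp524 and Zfp420 ended with the GC trend removed. The cluster at 27.7 to 28.4 Mb paired Zfp974 (0.37) with Zfp36 (-0.57). Of these calls, those of Zfp420, Zfp30, Zfp61, Zfp580 and Zfp524 ended with some library left out, with adjusted p-values up to 0.134, 0.112, 0.075, 0.0549 and 0.144. That of Zfp580 ended without Vector replicate 1, of Zfp61 without Limch1_OE replicate 1 or Vector replicate 1 or 2, of Zfp420 without Limch1_OE replicate 1 or 2 or Vector replicate 1 or 2, of Zfp30 without any but Limch1_OE replicate 3 and of Zfp524 without any but Limch1_OE replicate 1.

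The cluster at 127.2 to 127.9 Mb of chromosome 7 held 10 members of which 0 were called by limma, and 0 had an unadjusted p under 0.05. Its median was 0.07, and its members ranged over -0.34 for Zfp771 to 0.19 for Zfp668. Zfp646, for example, had 13.25, 13.5 and 13.29 FPKM in Limch1_OE cells and 13.32, 13.34 and 12.98 FPKM in Vector cells. Zfp771 varied widely within groups, at 3.15, 1.03 and 0.93 FPKM in Limch1_OE cells and 1.21, 2.95 and 2.81 FPKM in Vector cells. Of the 10 members, 4 hold a KRAB pattern.

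The cluster of chromosome 6 at 47.8 to 48.6 Mb had 0 higher and 2 lower of 6 members and a median of -0.15. Zfp212 had 7.68, 8.45 and 9.45 FPKM in Limch1_OE cells and 10.6, 10.97 and 10.77 FPKM in Vector cells (log2 fold change -0.31, limma adjusted p = 0.0143). Zfp777 had 16.29, 16.01 and 17.17 FPKM in Limch1_OE cells and 20.0, 20.06 and 19.96 FPKM in Vector cells (-0.27, adjusted p = 0.00493), and its most abundant transcript, with 73.6% of its level, gave 0.21 without a call (adjusted p = 0.117). Both were KRAB-type genes with groups that did not overlap. Zfp956 lay below Vector in each Limch1_OE library without passing the test (-0.20, adjusted p = 0.0713), and Zfp282, Zfp746 and Zfp398 overlapped between groups.

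The other clusters with at least 3 members held 1 or 2 called genes each. On chromosome 4 at 145.5 to 147.8 Mb 2 of 3 members were higher: Zfp979 had 6.27, 5.99 and 4.9 FPKM in Limch1_OE cells and 3.89, 3.69 and 3.71 FPKM in Vector cells (log2 fold change 0.49, limma adjusted p = 0.0043), and Zfp984 averaged 6.14 ± 0.512 FPKM in Limch1_OE cells and 4.66 ± 0.277 FPKM in Vector cells (SD, n = 3 each). Both have close coding copies, Zfp978 and Gm13212. On chromosome 8 at 69.2 to 69.8 Mb Zfp930 and Zfp963 were higher (0.34 each), on chromosome 13 at 67.0 to 67.8 Mb Zfp65 (0.43), on chromosome 5 at 138.1 to 138.6 Mb Zfp157 (0.28), on chromosome 15 at 75.6 to 76.0 Mb Zfp707 (0.26) and on chromosome 18 Zfp397 (0.29). Of these genes Zfp979 kept its call without any 1 library. Zfp984 lost it without Limch1_OE replicate 2 or Vector replicate 1 (adjusted p up to 0.0542), and Zfp65 (0.0528) and Zfp397 (0.0653) lost it without Vector replicate 2. Zfp930 (up to 0.138) and Zfp157 (up to 0.13) lost it without Limch1_OE replicate 1 or 2 or Vector replicate 1 or 2, Zfp963 (up to 0.0864) without Limch1_OE replicate 1 or 3 or Vector replicate 1 or 3, and Zfp707 (up to 0.111) without any but Vector replicate 1. The most abundant transcript of Zfp707 gave -0.43 without a call (adjusted p = 0.613). With the GC trend removed, each of these clusters had 0 higher members. In that of chromosome 18, Zfp35 (-0.36, adjusted p = 0.0109) and Zfp24 (-0.22, adjusted p = 0.0186) were then lower. The cluster of chromosome 13 holds 19 Zfp genes, of which 4 reached the level of the rule.

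Genes that lie between the members were counted to set the clusters beside their neighbours. Inside the cluster spans, 25 tested protein-coding genes that are no members encode at least 3 fingers. Of these 8 were higher (32.0%, against 20.2% of all tested genes) and 0 lower, with a median log2 fold change of 0.27. The 78 neighbours with fewer than 3 fingers had 14 higher (17.9%) and 10 lower (12.8%), with a median of -0.01. The difference between neighbours and members was not tested.

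Of 21 tested genes of KAP1 corepressors and heterochromatin, a list wider than the partners through which KRAB proteins act, 16 did not pass the test. Of these 21 genes, the KAP1 corepressor and heterochromatin list, 4 were higher and 1 lower, with a median of 0.03. Trim28 had 116.86, 126.04 and 129.58 FPKM in Limch1_OE cells and 132.87, 133.06 and 131.34 FPKM in Vector cells, below Vector in each library without passing the test (log2 fold change -0.09, limma adjusted p = 0.174). With the GC trend removed it was called lower (-0.13, adjusted p = 0.0243). Setdb1 was not called (0.10, adjusted p = 0.234). Daxx, a histone H3.3 chaperone, was lower, at 22.2 ± 1.88 FPKM in Limch1_OE cells and 39.4 ± 1.04 FPKM in Vector cells, and its partner Atrx was higher, at 17.5 ± 2.12 FPKM in Limch1_OE cells and 10.6 ± 1.15 FPKM in Vector cells (SD, n = 3 each, -0.81 and 0.67, adjusted p = 3.91e-05 and 0.00131). Suv39h1, a histone H3 methyltransferase, was higher (0.36, adjusted p = 0.000495), although its most abundant transcript gave -0.82 and its protein-coding transcripts 0.04 (adjusted p = 0.791), neither with a call.

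Of 13 subunits of the NuRD complex 3 were higher (23.1%, against 20.2% of all tested genes), among them Rbbp4 (0.34) and Rbbp7 (0.32). Lower were 5 (38.5%, against 14.4%), among them Gatad2a (-0.24), whose most abundant transcript gave 0.03 without a call. ZFP445 and ZFP57 are known to act at imprinted regions in mouse. Zfp57 averaged 0.43 ± 0.0721 FPKM in Limch1_OE cells and 0.52 ± 0.239 FPKM in Vector cells (SD, n = 3 each), below the level of the test. Of 13 tested imprinted genes 5 were higher (38.5%) and 1 lower (7.69%). The largest changes were Ube3a (0.52), Peg13 (0.49), Impact (0.49) and, lower, Snrpn (-0.40, limma adjusted p = 0.00161). Ube3a lost its call without Limch1_OE replicate 1 or 3 or Vector replicate 1 or 2 (adjusted p up to 0.124). Its call also ended with the GC trend removed (0.27, adjusted p = 0.199), by the most abundant transcript (0.264), with no filter on low values (0.152), by protein-coding transcripts (0.0694), and with limma's trend turned off, its robust option or trimmed-mean scaling (0.0541 to 0.0935). Impact lost its call by the most abundant transcript (adjusted p = 0.067) and with no filter (0.0565).

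Other zinc finger families give a scale for the Zfp genes, beside 20.2% of all tested genes called higher and 14.4% lower. Of 31 tested BTB zinc finger genes 8 were higher (25.8%) and 2 lower (6.45%, median 0.09), with Zbtb12 at 0.52, Zbtb20 at 0.44 and Zbtb42 at -0.53. Of 16 SCAN zinc finger genes 2 were higher (12.5%), Zkscan3 (0.26) and Zkscan17 (0.21), and 0 lower (median 0.04). Zkscan3 lost its call without any library but Limch1_OE replicate 2 and Zkscan17 without any but Limch1_OE replicate 1 (adjusted p up to 0.0824 and 0.126), and Zbtb20 without Vector replicate 3 (0.0509). Named C2H2 regulators had 4 higher (13.3%) and 5 lower (16.7%) of 30 (median 0.00). The list as drawn up also holds Znfx1, 1 of the 5 lower, although its protein is not of the C2H2 type. Znfx1 had the largest change of the list, at 8.95 ± 0.335 FPKM in Limch1_OE cells and 24.6 ± 1.11 FPKM in Vector cells (SD, n = 3 each, -1.36, limma adjusted p = 3.76e-07). Zeb2, a repressor of epithelial genes, was at 0.55 (0.22 without a call by its most abundant transcript, adjusted p = 0.231), and Klf4, an epithelial and stem cell factor, at -0.60. Of 31 CCCH genes of RNA binding, a list that includes Zfp36, 4 were higher (12.9%) and 5 lower (16.1%, median -0.01). The antiviral protein gene Zc3hav1 was at 50.6 ± 0.387 FPKM in Limch1_OE cells and 80.0 ± 2.28 FPKM in Vector cells (SD, n = 3 each, -0.65, limma adjusted p = 9.49e-06).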

How the data were processed

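RNA was sequenced from 6 libraries of 4T1 cells. The deposited table gives FPKM for 77865 transcripts, made by the authors with fastp 0.23.2, STAR 2.7.10, featureCounts 2.0.1, StringTie 2.2.1 and the build mm10, per the submitters' processing notes; the notes do not say which tool gave the FPKM, or which annotation or strand setting was used. No counts are listed, so the depth is unknown, and precision is the SD over 3 libraries.

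Transcripts were summed per gene and named from GENCODE M21, which matched 26033 of 26094 genes. Genes with at least 1 FPKM in 3 or more libraries were tested with limma 3.58.1 in R 4.3.3 (lmFit, eBayes with trend) on log2(FPKM + 1), two-sided, Benjamini-Hochberg adjusted, threshold 0.05; the procedure was tested on simulated data. An exact permutation test of 3 against 3 libraries cannot give a p below 0.1. Members, lists and classes were chosen with earlier results of these data known.

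Fingers (cysteines 2 or 4 residues apart, 12 residues, histidines 3 to 5 apart) and KRAB patterns were found in translated GENCODE M21 coding sequences. No protein sequence is printed, and coding bases of fingers are given in place of the proteins first planned. The GC trend was removed with a lowess of span 0.3.

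The genes named were Limch1, Trim28, the 12 highest and up to 12 lowest called members, the 8 most abundant, the 4 members above and 4 genes below the level rule, up to 4 called members per cluster and up to 3 called genes per list. Others given as examples were chosen after their values were seen.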

Additional observations from a re-analysis of the deposited data

How the results depend on the processing

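The 73 higher Zfp genes became 21 by the most abundant transcript, 28 with no filter on low values and 45 by protein-coding transcripts. They became 38 with the GC trend removed and 24 without Limch1_OE replicate 1 as well, and ranged over 37 to 72 with 1 library left out. In the unchanged fit, 31 of the 112 members with a mean of at least 5 FPKM were higher. Of the tested members 10.5% were higher by the most abundant transcript (8.63% of all tested genes), 13.8% with no filter (6.63%), 22.4% by protein-coding transcripts (14.9%), 18.8% with the GC trend removed (17.1%) and 11.9% without Limch1_OE replicate 1 as well (14.2%). The 7 lower became 3 by the most abundant transcript, 11 by quantile normalization, 11 by trimmed-mean scaling, 16 and 14 with the GC trend removed, and 4 to 10 with 1 library left out. The median of 0.16 was 0.066 for members of at least 5 FPKM, 0.102 and 0.081 with the GC trend removed, and 0.126 to 0.181 with 1 library left out. The same alternatives (most abundant transcript, no filter, protein-coding transcripts, GC trend removed, and this without Limch1_OE replicate 1) gave 13, 16, 29, 21 and 12 higher KRAB-type members in place of 49 (23 to 51 with 1 library left out), and 11, 12, 26, 19 and 10 higher members in clusters in place of 47 (21 to 50). The cause was not tested, but without a filter 25641 genes were tested. Other alternatives stayed within 1.5 times each count. The replicate block gave 58 higher members; the numbers do not pair the libraries (correlations of same-numbered deviations -0.00172, 0.0456 and 0.0592). For single genes the direction turned by the most abundant transcript for Zfp229 (-0.015), Zfp707 (-0.432), Zfp740 (0.319), Zfp777 (0.206), Zfp598 (-0.059), Gatad2a (0.034) and Suv39h1 (-0.824), and by quantile normalization for Zfp207 (0.053), Zfp664 (0.036) and Zfp740 (0.013). Zfp598 also turned by protein-coding transcripts (-0.098), trimmed-mean scaling (-0.010) and GC removal (-0.004, and -0.044 without Limch1_OE replicate 1). With 1 library left out, Zfp207 spanned -0.051 to 0.027, Zfp598 -0.001 to 0.066, Zfp664 -0.041 to 0.012, Zfp740 -0.053 to 0.032 and Zfp94 -0.018 to 0.214. Unknown depth limits the low members.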
